A study of Mus musculus with 9 samples.

Results

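The genes followed here mark tissues other than heart muscle. They are 10 of the 18738 genes in the table, 6 known for the conducting airways (Scgb3a2, Scgb1a1, Reg3g, Muc5b, Cyp2f2 and Bpifa1) and 4 known for cartilage (Acan, Matn1, Cnmd and Hapln1). They were picked by gene symbol, after their values in single libraries had been seen. Their levels are therefore given as a description, each library alone, with no test. The libraries were RNA-seq of cardiomyocytes isolated at postnatal day 0 from wild-type C57BL/6J mouse pups, with 3 libraries for each of 3 maternal diets: normal (ND), slightly high in fat (sHFD) or high in fat (HFD), given at random to the mothers for the whole of pregnancy. The labels do not give the fat content of the diets, the sex of the pups, or whether hearts were pooled or litters shared, so p-values measure only the spread between these libraries, which may be technical. Levels are in TPM, transcript levels per length scaled to the same total in every library, which keep no read depth, so the depth is unknown. In such bulk libraries, fewer cells of a type and less RNA per cell cannot be told apart. Each library had between 16722 and 17105 genes above 0, and 0 pairs of libraries were identical.

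Airways are lined by secretory club cells, goblet cells and ciliated cells. Club cells release secretoglobins, small proteins of the airway lining fluid, and goblet cells release gel-forming mucins. Cartilage owes its stiffness to aggrecan, a large proteoglycan held on hyaluronan chains by link protein within a network of type II, IX and XI collagen. In the newborn mouse chest the trachea holds both tissues, and ribs and sternum hold cartilage. Aggrecan, link protein and chondromodulin are also known from heart valves, which share part of their matrix with cartilage. The heart sample itself carried its defining markers: all 10 cardiomyocyte genes listed (Myh6, Myh7, Tnnt2, Tnni3, Actc1, Myl2, Myl7, Ryr2, Pln and Nkx2-5) were above 0 in every library. Their summed level was 29547 TPM in HFD replicate 3 and 25243 TPM in ND replicate 1, against 31384 to 52394 TPM in the remaining 7. Single genes did not all follow the sum. In HFD replicate 3, Myh6, Ryr2 and Pln were above the mean of the other HFD libraries and the rest were below. In ND replicate 1, Myh7 was above the mean of the other ND libraries and the rest were below.

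The promoter windows of a few members are shown because the genes behave differently in the libraries. Reg3g and Cyp2f2 were high in HFD replicate 3 and ND replicate 1, Bpifa1 was above 0 in ND replicate 1 alone, and Matn1 and Acan are the cartilage genes nearest to absence and highest in level. Each window runs from 250 bases before to 50 bases after the annotated start, 5′ to 3′ on the gene's strand, from the RefSeq table of build GRCm38.p6, which matched 7 of the 10 members. Capitals mark matches, on either strand, to a TATA motif (TATAAA) or to an NKX2-type motif (CAAGTG).
Reg3g: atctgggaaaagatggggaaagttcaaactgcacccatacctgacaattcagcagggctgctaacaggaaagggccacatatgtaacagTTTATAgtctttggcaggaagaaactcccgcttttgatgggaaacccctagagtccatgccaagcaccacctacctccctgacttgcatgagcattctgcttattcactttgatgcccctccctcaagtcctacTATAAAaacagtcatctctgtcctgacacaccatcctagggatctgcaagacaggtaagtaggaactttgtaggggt
Cyp2f2: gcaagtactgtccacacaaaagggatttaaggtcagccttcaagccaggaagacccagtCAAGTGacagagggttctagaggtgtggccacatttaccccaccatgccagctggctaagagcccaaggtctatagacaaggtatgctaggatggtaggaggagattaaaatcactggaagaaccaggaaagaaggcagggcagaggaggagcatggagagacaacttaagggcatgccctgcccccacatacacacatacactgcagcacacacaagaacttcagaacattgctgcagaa
Bpifa1: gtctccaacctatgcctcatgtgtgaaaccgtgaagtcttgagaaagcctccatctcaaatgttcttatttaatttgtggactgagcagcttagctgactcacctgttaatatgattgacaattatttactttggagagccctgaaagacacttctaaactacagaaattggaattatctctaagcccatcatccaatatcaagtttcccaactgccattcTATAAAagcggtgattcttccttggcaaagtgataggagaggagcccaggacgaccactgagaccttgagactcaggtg
Matn1: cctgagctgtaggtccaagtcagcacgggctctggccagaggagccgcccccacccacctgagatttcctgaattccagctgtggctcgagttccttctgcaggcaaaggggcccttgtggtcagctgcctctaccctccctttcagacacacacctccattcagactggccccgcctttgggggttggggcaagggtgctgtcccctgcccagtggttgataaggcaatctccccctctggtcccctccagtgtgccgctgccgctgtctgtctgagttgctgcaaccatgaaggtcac
Acan: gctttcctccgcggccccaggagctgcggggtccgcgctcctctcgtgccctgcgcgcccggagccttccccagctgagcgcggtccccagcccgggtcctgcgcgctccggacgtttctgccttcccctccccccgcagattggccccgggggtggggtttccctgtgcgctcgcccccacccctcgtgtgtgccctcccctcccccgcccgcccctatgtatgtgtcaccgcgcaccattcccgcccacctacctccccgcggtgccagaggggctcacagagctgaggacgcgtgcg

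These windows lie at chr6:78468825-78469124 (- strand) for Reg3g, chr7:27119705-27120004 (+ strand) for Cyp2f2, chr2:154142630-154142929 (+ strand) for Bpifa1, chr4:130944135-130944434 (+ strand) for Matn1 and chr7:79052976-79053275 (+ strand) for Acan. The TATA motif began 27 bases before the start in Reg3g, with a second match on the other strand 161 bases before it, and 29 bases before the start in Bpifa1. It was present in 2 of the 7 member windows, against 13.6% of 32851 windows in the table. The NKX2-type motif was in 1 of the 7, Cyp2f2, 191 bases before its start, against 13.6% of all windows. A forkhead motif (TGTTTAC) and a SOX motif (AACAAT) were searched the same way and were in 0 of the 7 windows, against 3.65% and 10.7% of all windows. No match overlapped a match to another motif. Acan had a GC content of 74.0% with 31 CG pairs, Matn1 one of 61.3% with 6, Cyp2f2 one of 50.3% with 0, Reg3g one of 47.3% with 1 and Bpifa1 one of 42.3% with 3. Letters in a window describe the sequence only.

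Of the airway genes, 5 of 6 had their highest level in HFD replicate 3 and their second highest in ND replicate 1. Outside these libraries Reg3g, Muc5b and Cyp2f2 were at most 0.22 TPM, while Scgb3a2 and Scgb1a1 were also above 0 in the other HFD libraries. Scgb3a2, a secretoglobin of the airway epithelium, was 52.2, 0 and 0 TPM in ND replicates 1 to 3, 0, 0 and 0 TPM in the sHFD libraries and 4.11, 3.13 and 174 TPM in HFD replicates 1 to 3. Its HFD libraries were therefore all above 0, while 5 libraries of the other diets were listed at 0. Scgb1a1, the club cell secretory protein, was 3.30, 0 and 0 TPM in ND, 0, 0 and 0 TPM in sHFD and 0.67, 0.46 and 17.2 TPM in HFD. It shows the same order of libraries as Scgb3a2 at a lower level: HFD replicate 3, ND replicate 1, HFD replicate 1, HFD replicate 2.

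Reg3g, a secreted lectin that kills Gram-positive bacteria at epithelial surfaces, was 17.0, 0.22 and 0 TPM in ND, 0, 0 and 0 TPM in sHFD and 0, 0 and 23.5 TPM in HFD. Unlike the secretoglobins it was listed at 0 in HFD replicates 1 and 2. Muc5b, a gel-forming mucin of airway secretions, was 3.16, 0.08 and 0.02 TPM in ND, 0.03, 0.14 and 0.03 TPM in sHFD and 0.14, 0.04 and 5.83 TPM in HFD. It was the one airway gene above 0 in all 9 libraries, yet 7 of them were at or below 0.14 TPM. Cyp2f2, a cytochrome P450 of mouse club cells, was 1.56, 0 and 0 TPM in ND, 0.08, 0.09 and 0 TPM in sHFD and 0.08, 0.11 and 5.89 TPM in HFD. Bpifa1, a secreted defence protein of the upper airways, was 1.17 TPM in ND replicate 1 and listed at 0 in the other 8 libraries, HFD replicate 3 included.

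The 6 airway genes summed to 227 TPM in HFD replicate 3 (0.0227% of the library) and 78.4 TPM in ND replicate 1 (0.00784%). In the other HFD libraries the sum was 5.00 and 3.74 TPM, and in the 5 remaining libraries of ND and sHFD it was 0.02 to 0.30 TPM. Scgb3a2 made up 76.9% of the sum in HFD replicate 3, 82.2% and 83.7% in HFD replicates 1 and 2, and 66.6% in ND replicate 1. The airway genes did not keep one ratio between the libraries where they were high. The level in HFD replicate 3 over that in ND replicate 1 was 5.22 for Scgb1a1, 3.78 for Cyp2f2, 3.34 for Scgb3a2, 1.84 for Muc5b and 1.38 for Reg3g.

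**Figure D1:**
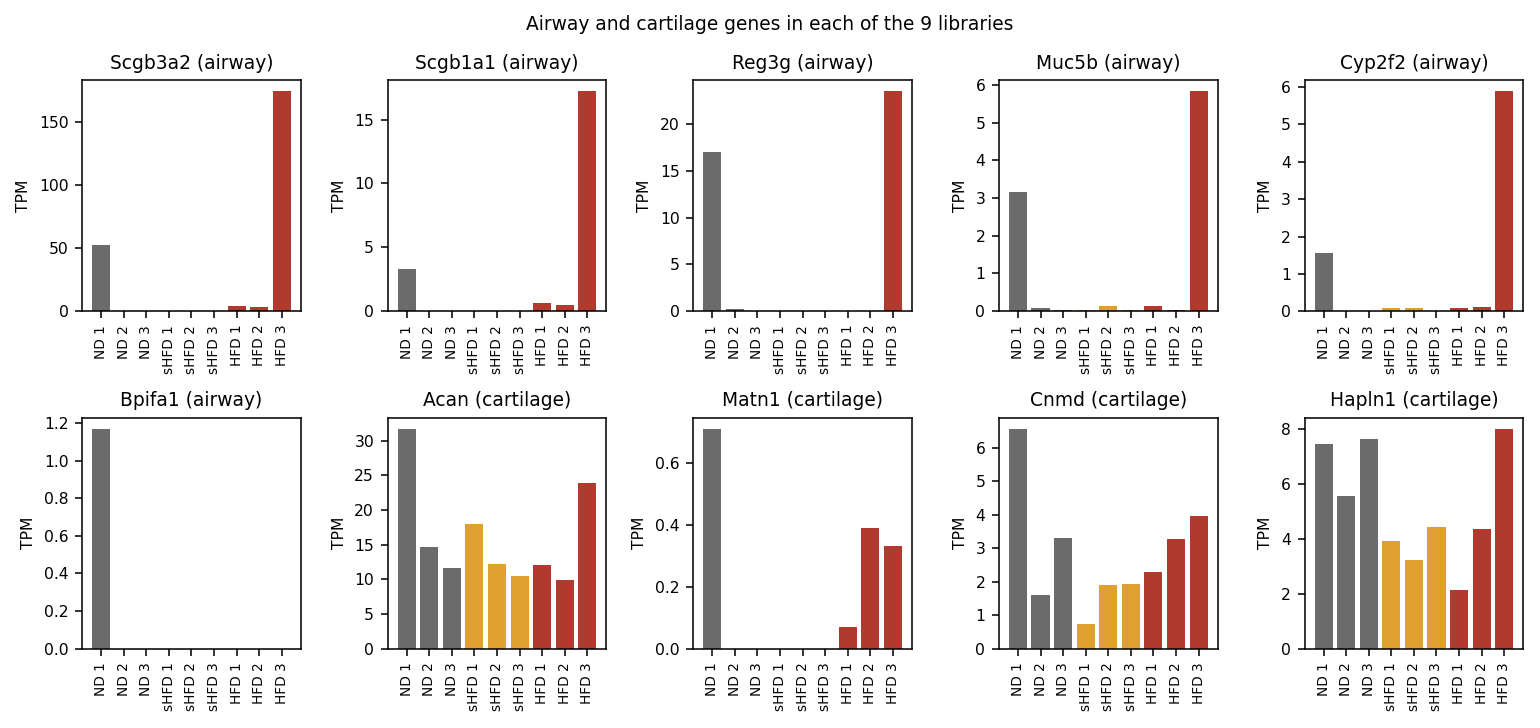
TPM (y axis, from 0, each gene on its own scale) of the 10 genes in each of the 9 libraries (x axis, ND grey, sHFD yellow, HFD red, 1 bar per library, no error bars). The first 5 airway panels are dominated by HFD replicate 3 and ND replicate 1, Bpifa1 by ND replicate 1 alone, and Acan, Cnmd and Hapln1 are above 0 in all libraries.

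The cartilage genes behaved differently from the airway genes: 3 of 4 were above 0 in every library. Acan, the aggrecan core protein, was 31.8, 14.6 and 11.6 TPM in ND, 18.0, 12.2 and 10.5 TPM in sHFD and 12.0, 9.95 and 23.9 TPM in HFD. HFD replicate 3 and ND replicate 1 were again the highest libraries, 1.33 and 1.77 times the highest of the other 7. Cnmd, chondromodulin, a cartilage protein that restrains vessel growth, was 6.57, 1.60 and 3.29 TPM in ND, 0.73, 1.89 and 1.93 TPM in sHFD and 2.30, 3.27 and 3.97 TPM in HFD. HFD replicate 3 exceeded ND replicate 3 by 1.21 times only. Hapln1, the link protein, was 7.43, 5.56 and 7.62 TPM in ND, 3.90, 3.24 and 4.44 TPM in sHFD and 2.13, 4.34 and 8.0 TPM in HFD. Its ND libraries were all above its sHFD libraries, and ND replicate 1 did not stand apart from ND replicate 3. Matn1, matrilin of the cartilage matrix, was 0.71, 0 and 0 TPM in ND, 0, 0 and 0 TPM in sHFD and 0.07, 0.39 and 0.33 TPM in HFD, so that it was above 0 in the HFD libraries and ND replicate 1 alone.

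Read as genes of single isolates, the members fell into different kinds. Reg3g, Muc5b and Cyp2f2 stood out in a pair of libraries and Bpifa1 was above 0 in 1. Scgb3a2 and Scgb1a1 were above 0 in all HFD libraries and in ND replicate 1. Of the cartilage genes, Acan, Cnmd and Hapln1 had a floor of 9.95, 0.73 and 2.13 TPM over all libraries. The 4 cartilage genes summed to 36.2 TPM in HFD replicate 3, 46.5 TPM in ND replicate 1 and between 16.5 and 22.6 TPM in each of the remaining 7. The order of the high libraries was opposite in the 2 groups: HFD replicate 3 was above ND replicate 1 in 5 of 6 airway genes and in 1 of 4 cartilage genes. Across all 18735 genes above 0 in a library, HFD replicate 3 was above ND replicate 1 in 46.1% and below it in 47.5%. Both libraries were the highest ones in 7 of the 10 members, against 10.6% of the 18735 genes and 12.4% of the 13655 that averaged 1 TPM or more, and the choice of members used these values.

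**Figure D2:**
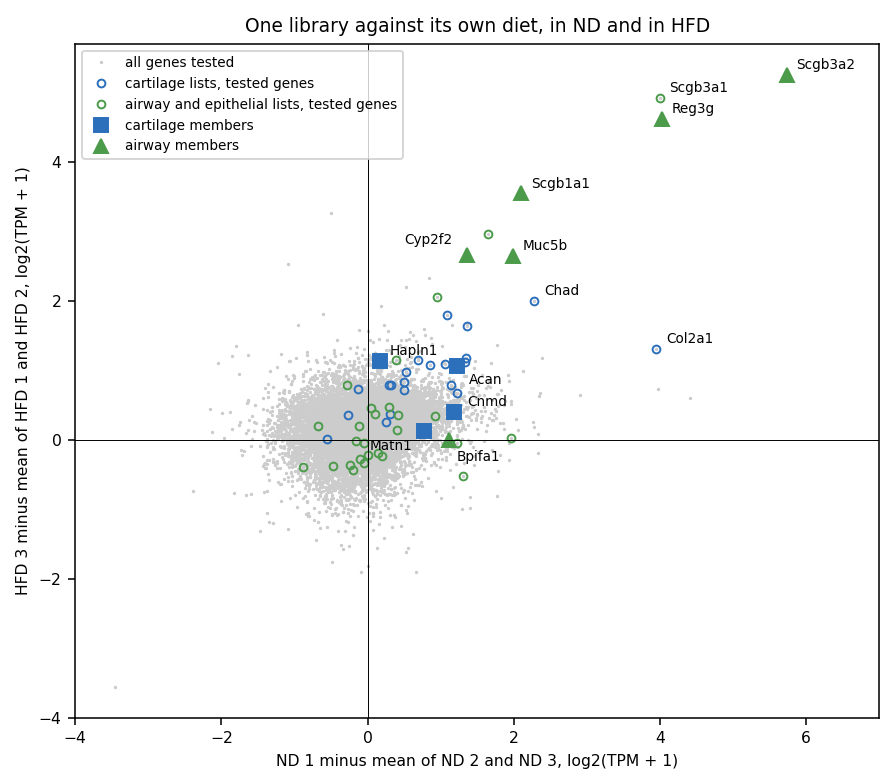
Difference of HFD replicate 3 from the mean of HFD replicates 1 and 2 (y axis) against that of ND replicate 1 from the mean of ND replicates 2 and 3 (x axis), both on the log2(TPM + 1) scale, for 13655 tested genes (grey), the members (filled) and the tested genes of the airway and cartilage lists (open). Scgb3a2 lies farthest out at 5.25 and 5.73, with Reg3g (4.61 and 4.03) and the non-member Scgb3a1 (4.92 and 4.00) near it.

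Set against their own diets, HFD replicate 3 exceeded the mean of the other HFD libraries, and ND replicate 1 that of the other ND libraries, by at least 2 on the log2(TPM + 1) scale in 5 of 13655 tested genes (0.0366%). These were Scgb3a2, Scgb1a1, Reg3g and the non-members Scgb3a1 and Chad. The size was chosen after the values were seen, and the members were picked with these same values known, so the shares in this paragraph are a description. Reg3g and Scgb1a1 were at most 0.22 and 0.67 TPM elsewhere, and averaged 1 TPM or more only through these libraries. At 4-fold above every other library in both, counted on TPM + 1, which understates low genes, 3 of 18735 genes remained (0.016%): Reg3g, Scgb3a1 and Scgb3a2. By a stricter rule for 1 library alone, with at least 5 TPM there and 8-fold over the next library on TPM + 1, 0 non-member genes were found in each library other than sHFD replicate 1, which had 1, the predicted gene Gm1987. Bpifa1 and Sftpd, each above 0 in 1 library, were under that minimum of 5 TPM.

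Other airway secretory genes went along in part. Scgb3a1, a further secretoglobin of the upper airways, was 32.4, 0.57 and 1.79 TPM in ND, 0.88, 1.40 and 2.08 TPM in sHFD and 0.99, 1.25 and 63.0 TPM in HFD. Wfdc2, a secreted protease inhibitor of airway epithelium, was 3.26, 0.49 and 0.23 TPM in ND, 0.20, 0.72 and 0.24 TPM in sHFD and 0.42, 0.58 and 10.7 TPM in HFD. Cbr2, a carbonyl reductase of mouse club cells, was 13.9 TPM in HFD replicate 3, 6.59 TPM in ND replicate 1 and 2.19 to 5.12 TPM elsewhere. Agr2 and Bpifb1, secretory pathway and defence genes, had the same top libraries at levels under 2 TPM. Of 19 measured genes of the secretory list, these 5 had both libraries highest, against 10.6% of all genes above 0 in a library. Muc5ac, the other main airway mucin, stayed at or below 0.07 TPM and Pigr, the antibody transporter of epithelia, at or below 0.23 TPM.

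Markers of other lung cell types were of mixed level, with several of the defining ones near 0. In the alveolar list Ager, Abca3, Napsa and Rtkn2 averaged 28.5, 23.1, 2.50 and 1.78 TPM over the 9 libraries, and in the ciliated list Tppp3, Tekt1, Cfap126 and Rsph1 averaged 40.5, 7.83, 1.75 and 1.16 TPM. The other members of these lists averaged under 1 TPM. Sftpc, the surfactant protein of alveolar type II cells, was 0.21 TPM in HFD replicate 3, 0 in ND replicate 1 and also 0.21 TPM in sHFD replicate 2, and Sftpa1 was at most 0.12 TPM in any library. Sftpd, a surfactant protein also made by club cells, was 2.14 TPM in HFD replicate 3 and listed at 0 in the other 8 libraries, and Sftpb was 1.28 TPM in HFD replicate 3, 0.47 TPM in ND replicate 1 and at most 0.52 TPM elsewhere. Foxj1, which drives ciliated cell formation, was 1.27 TPM in HFD replicate 3, 0.43 TPM in ND replicate 1 and at most 0.78 TPM elsewhere. Epcam, an adhesion protein of all simple epithelia, was 1.52 TPM in HFD replicate 3, 0.38 TPM in ND replicate 1 and at most 0.47 TPM elsewhere. Nkx2-1, the lung and thyroid transcription factor, was 0.54 and 0.44 TPM in these libraries and up to 0.46 TPM elsewhere, so it did not set them apart. The epithelial list genes of highest level, Krt19, Krt7, Krt18 and Krt8, averaged 31.4, 23.5, 20.6 and 13.7 TPM. Each was below the mean of the other ND libraries in ND replicate 1. In HFD replicate 3, Krt18 was above the mean of the other HFD libraries and the rest were below. The epithelial list summed to 108 TPM in HFD replicate 3, 77.1 TPM in ND replicate 1 and 72.7 to 117 TPM elsewhere. The squamous and basal keratins Krt14, Krt6a, Krt5 and Krt15 averaged 9.68, 2.12, 1.51 and 1.24 TPM over the 9 libraries and were highest in other libraries, except Krt5 (2.79 TPM in ND replicate 1).

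**Figure D3:**
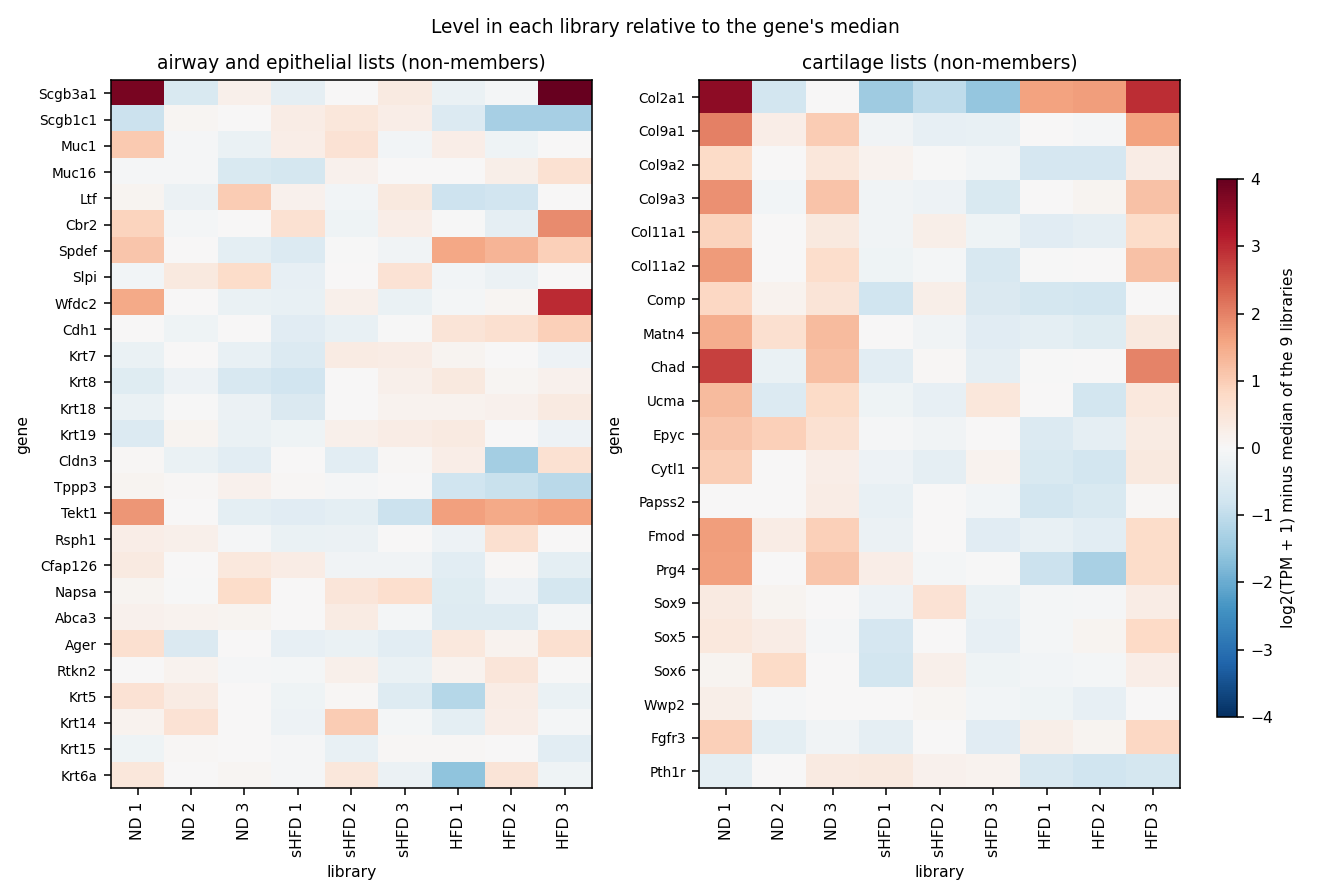
Level of the tested non-member genes of the airway and epithelial lists (left) and cartilage lists (right) in each library (columns), as log2(TPM + 1) minus the gene's median over the 9 libraries (colour). Scgb3a1 and Wfdc2 on the left are red in HFD replicate 3 and ND replicate 1 and most other epithelial genes are not, while most cartilage matrix genes on the right are raised in both libraries.

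The cartilage matrix genes outside the members followed the same libraries more broadly. HFD replicate 3 was above the mean of the other HFD libraries, and ND replicate 1 above that of the other ND libraries, in 19 of 20 cartilage matrix genes and 7 of 10 cartilage regulators, against 32.5% of 18735 genes. Col2a1, the type II collagen of cartilage, was 84.9, 3.31 and 6.16 TPM in ND, 1.66, 2.56 and 1.44 TPM in sHFD and 20.9, 21.9 and 54.4 TPM in HFD. Every HFD library was thus above 5 of the other 6. Col9a1, a chain of type IX collagen, was 46.7, 13.4 and 23.2 TPM in ND, 9.81, 8.40 and 8.76 TPM in sHFD and 10.9, 10.4 and 35.4 TPM in HFD. Chad, chondroadherin, a cell-binding protein of cartilage, was 16.7, 1.18 and 5.09 TPM in ND, 0.99, 1.74 and 1.07 TPM in sHFD and 1.63, 1.64 and 9.54 TPM in HFD. For Col9a1 and Chad, ND replicate 3 was next in the order. Snorc, a proteoglycan of chondrocytes, and Matn3, a matrilin, were 1.62 and 0.87 TPM in HFD replicate 3 and 3.39 and 1.04 TPM in ND replicate 1. Snorc was at 0 in the other ND libraries and in sHFD.

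The cartilage matrix list summed to 472 TPM in HFD replicate 3, 764 TPM in ND replicate 1 and 202 to 449 TPM elsewhere. ND replicate 1 was above HFD replicate 3 in 19 of its 20 genes, against 47.5% of all genes above 0 in a library. The regulator Sox9, the master factor of chondrocytes, was 17.2 TPM in HFD replicate 3 and 17.9 TPM in ND replicate 1, below the 20.8 TPM of sHFD replicate 2. Fgfr3, a growth factor receptor of chondrocytes, was 44.3 TPM in HFD replicate 3, 47.7 TPM in ND replicate 1 and 17.6 to 28.7 TPM elsewhere. Of 6 bone genes, 1 had both libraries highest, where 10.6% of all genes did. It was Phex, at 0.64 and 0.74 TPM against at most 0.46 TPM elsewhere. Alpl, alkaline phosphatase, ran between 6.43 and 13.4 TPM, and Bglap and Bglap2, near-identical copies and so uncertain, were at most 1.03 and 0.45 TPM. Col10a1, of hypertrophic cartilage, was at most 0.25 TPM. The 9 heart valve genes summed to 3280 TPM in HFD replicate 3, 3448 TPM in ND replicate 1 and 2579 to 3666 TPM elsewhere. Of them 1, the valve factor gene Nfatc1, had both libraries highest (58.9 and 73.1 TPM, against 38.8 to 54.5 TPM). That share of 11.1% was near the 10.6% of all genes.

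**Figure D4:**
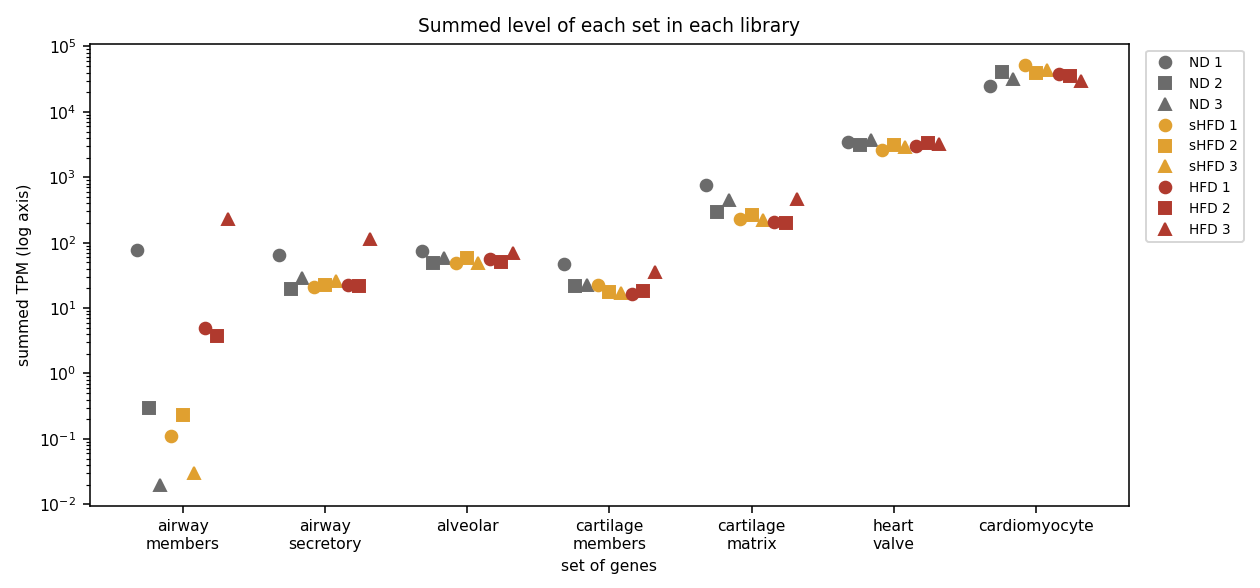
Summed TPM (y axis, log scale) of 7 sets of genes in each library (symbols, colour by diet, shape by replicate number). The airway member sum spans 0.02 to 227 TPM, the cartilage matrix sum 202 to 764 TPM and the heart valve sum 2579 to 3666 TPM, while the cardiomyocyte sum is lower in HFD replicate 3 and ND replicate 1 than in any other library.

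The genes with the profile most like the members were sought among 122 non-member genes, predicted gene names left out, that averaged 1 TPM or more and had a standard deviation of log2(TPM + 1) of at least 1. Likeness was Pearson's r with the members' mean profile over 9 libraries, given as a description because it rests largely on HFD replicate 3 and ND replicate 1. Nearest to the airway genes were Scgb3a1 (r = 0.97), Wfdc2 (r = 0.97), Hsph1 (r = 0.88), Chad (r = 0.84), Col2a1 (r = 0.84), Sik1, Nr4a2, Fosl2, Atf3 and Trp53inp1 (r from 0.80 to 0.82). Over the other 7 libraries r was -0.24 for Scgb3a1 and 0.37 for Wfdc2, against 0.98 for Hsph1, a heat-shock chaperone. The difference lies in HFD replicates 1 and 2: Hsph1 was 86.7, 17.1 and 14.5 TPM in ND, 14.4 to 18.1 TPM in sHFD and 50.01, 57.1 and 122 TPM in HFD. Atf3, a stress-induced transcription factor, was 362, 58.2 and 192 TPM in ND, 49.0 to 72.1 TPM in sHFD and 239.9, 219 and 591 TPM in HFD. Nearest to the cartilage genes were Chad (r = 0.95), Scgb3a1 (r = 0.89), Col2a1 (r = 0.80), Wfdc2 (r = 0.78), Nr4a2, Fosb, Atf3, Bhlhe40, Adamts1 and Crybb3 (r from 0.71 to 0.75). Over the other 7 libraries r with the cartilage genes was 0.69 for Chad, 0.20 for Scgb3a1, 0.28 for Col2a1 and -0.08 for Wfdc2. It was 0.35 for Nr4a2 and 0.43 for Atf3. Scgb3a1, Wfdc2, Chad, Col2a1, Atf3 and Nr4a2 stood in both orders, and the part of such genes' libraries in the members' levels was not tested.

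The diet differences of the members depended on these libraries to different degrees. The mean log2(TPM + 1) of Scgb1a1 differed by 1.12 between HFD and ND with all libraries and by 0.64 without HFD replicate 3 and ND replicate 1. Cyp2f2 differed by 0.56 with all and by 0.13 without them, and Muc5b by 0.27 and 0.05. Scgb3a2 differed by 2.04 with all libraries and by 2.20 without them, since HFD replicates 1 and 2 were above 0 and ND replicates 2 and 3 were not. Acan differed by -0.29 and -0.23, and Hapln1 by -0.55 and -0.88. Reg3g turned from 0.05 to -0.14, and Cnmd from -0.09 to 0.17. Matn1 differed by 0.07 and 0.29, and Bpifa1 by -0.37 and 0. These values carry no test, and libraries of 1 diet gave levels as far apart as 0 and 52.2 TPM for Scgb3a2 in ND.

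The non-member genes of the lists were tested for diet across the 13655 genes that averaged 1 TPM or more, using limma on log2(TPM + 1) with Benjamini-Hochberg adjustment at 0.05. Of the 10 members, 7 passed this filter and Cyp2f2, Bpifa1 and Matn1 did not. Scgb1a1, Reg3g and Muc5b were at or below 0.67 TPM outside HFD replicate 3 and ND replicate 1, and no member's test is given. In HFD vs ND, 2 of 27 tested airway and epithelial genes passed, 1 higher and 1 lower, where 10.9% of all genes passed (1.28% higher and 9.59% lower). With libraries scaled to a common median ratio these shares were 4.89% higher and 7.29% lower. Tppp3, a tubulin-binding protein of ciliated and other cells, fell to 24.3 ± 2.42 TPM in HFD, against 50.7 ± 2.37 TPM in ND (SD, n = 3 each), which is -1.04 on the log2 scale (SE 0.15, limma adjusted p = 0.00491). It passed in all 9 fits that left out 1 library. Cdh1, the epithelial cadherin, rose to 2.02 ± 0.48 TPM in HFD, against 0.80 ± 0.12 TPM in ND (log2 0.74, SE 0.22, limma adjusted p = 0.0451), and passed in 1 of those 9 fits, the one without ND replicate 1. Tppp3 was 21.7 TPM in HFD replicate 3 and 50.7 TPM in ND replicate 1, each close to the other libraries of its diet. Cdh1 was 2.56 TPM in HFD replicate 3 and 0.88 TPM in ND replicate 1, the highest of each diet. Median log2 differences were 0.05 in these 27 genes and -0.14 in all genes.

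Of 21 tested cartilage genes, 4 fell in HFD relative to ND and 0 rose, where 9.59% of all genes were lower. Under median-ratio scaling 2 fell and 0 rose, where 7.29% of all genes were lower. The 4 were Matn4, a matrilin (6.44 ± 2.64 TPM in HFD, 16.9 ± 4.86 TPM in ND, log2 -1.28, SE 0.28, limma adjusted p = 0.0167), Epyc, a small proteoglycan (1.10 ± 0.72 TPM in HFD, 3.38 ± 0.75 TPM in ND, log2 -1.10, adjusted p = 0.0203), Pth1r, the parathyroid hormone receptor (14.98 ± 0.88 TPM in HFD, 25.7 ± 6.66 TPM in ND, log2 -0.71, adjusted p = 0.037), and Comp, a matrix protein of cartilage and tendon (22.7 ± 7.20 TPM in HFD, 45.1 ± 10.9 TPM in ND, log2 -0.97, adjusted p = 0.0456, SD, n = 3 each). The median log2 difference of the 21 genes was -0.56, against -0.14 in all genes. Comp and Pth1r missed the threshold when libraries were scaled to a common median ratio (limma adjusted p = 0.058 and 0.0816) and with no filter (0.0923 and 0.0614). The count was 0 without ND replicate 3, HFD replicate 1 or HFD replicate 2, where 39, 127 and 32 of all 13655 genes passed. It was 2 without sHFD replicate 1 or 3, where 1002 and 877 of all genes passed. Without HFD replicate 3 it was 9, where 1721 of all genes passed.

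Without both HFD replicate 3 and ND replicate 1, 11 of the 21 cartilage genes passed in HFD vs ND, 10 lower and 1 higher. Of all genes 29.2% passed in this fit, 3196 genes lower and 789 higher. The libraries left out, here and for HFD vs sHFD, were chosen after their values were seen. Only 7 libraries remained, so the p-values of this fit are a description. The gene that was higher was Col2a1 (log2 2.01, limma adjusted p = 0.000922), which did not pass with all libraries. Those that were lower and had not passed with all libraries included Prg4, the lubricin of joint surfaces (log2 -1.63, adjusted p = 0.00354), Fmod, fibromodulin (log2 -0.99, adjusted p = 0.00788), and Col9a2 (log2 -0.90, adjusted p = 0.006). In that fit 6 of the 27 airway and epithelial genes passed, among them Tekt1, a tektin of cilia (log2 1.77, adjusted p = 0.000909), Spdef, an epithelial transcription factor of goblet cells (log2 1.66, adjusted p = 0.00141), and Ltf, lactotransferrin (log2 -1.17, adjusted p = 0.0255).

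In HFD vs sHFD, 7 of 27 airway and epithelial genes passed, 4 higher and 3 lower, and 2 of 21 cartilage genes, 1 in each direction, where 34.2% of all genes passed (10.3% higher and 23.9% lower). With median-ratio scaling 2597 genes were higher and 2622 lower, so the balance of directions depends on the scaling. Tekt1 rose to 13.7 ± 0.55 TPM in HFD, against 2.34 ± 0.57 TPM in sHFD (log2 2.16, SE 0.41, limma adjusted p = 0.003). Spdef, Cdh1 and Ager, a receptor of alveolar type I cells, rose by 1.53, 0.96 and 0.74 (adjusted p = 0.00542, 0.00615 and 0.0373), and Scgb1c1, a further secretoglobin, Tppp3 and Napsa, a protease, fell by 1.41, 0.91 and 0.85 (adjusted p = 0.00394, 0.00161 and 0.0259). Col2a1 rose to 32.4 ± 19.1 TPM in HFD, against 1.89 ± 0.59 TPM in sHFD (log2 3.41, SE 0.79, limma adjusted p = 0.00706), passed in all 9 fits that left out 1 library, and had a log2 fold change of 2.98 (adjusted p = 5.97e-05) without HFD replicate 3 and ND replicate 1. Pth1r fell to 14.98 ± 0.88 TPM in HFD, against 30.1 ± 2.87 TPM in sHFD (log2 -0.96, adjusted p = 0.00387). Ager passed in 3 and Napsa in 5 of the 9 fits. Ager was also high in HFD replicate 3 (41.8 TPM) and ND replicate 1 (42.2 TPM), its highest libraries, and without them its log2 difference was 0.63 (limma adjusted p = 0.0239). Median log2 differences were -0.03 in the airway and epithelial genes, 0.02 in the cartilage genes and -0.16 in all genes.

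In sHFD vs ND, limma called 0 of 27 airway and epithelial genes and 0 of 21 cartilage genes, where 0.00732% of all genes were called. At an unadjusted limma p under 0.05 there were 1 and 9 of them. The share of all genes at that looser threshold was not counted, so these counts have no background beside them. The median log2 difference of the cartilage genes was -0.56, against 0.00 in all genes. Without ND replicate 2, 7 cartilage genes passed, all 7 lower, where 2.64% of all genes passed (222 genes higher and 138 lower). The comparisons share libraries, so their values are not independent of each other.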

How the data were processed

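Messenger RNA of cardiomyocytes was sequenced in 9 libraries, 3 per diet. The authors deposited TPM for 18738 genes, and all columns sum to the same total within rounding. The submitters' processing notes list RSEM 1.3.1 and GRCm38, without their role. No source used here gives the annotation. Columns named CON, MID and HIGH were read as ND, sHFD and HFD. Members and lists (15 in number) were chosen with earlier results of these data known. Members were given as deposited. Diets were compared in limma 3.58.1 under R 4.3.3, on log2(TPM + 1) for the 13655 genes averaging 1 TPM or more, all libraries in 1 fit with a variance trend. Fold changes on this scale understate those of low genes, and TPM gives no interval for depth. Named list genes were those past 0.05, otherwise the 4 highest, and further list genes were named after their values were seen. With 3 libraries a diet, exact permutation has a smallest two-sided p of 0.1 and was not used. The test was checked on simulated data. Alternatives were a pseudocount of 0.1, no filter, median-ratio scaling, a replicate block and libraries left out.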

Additional observations from a re-analysis of the deposited data

How the results depend on the processing

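The counts of genes called depended on the libraries. For HFD vs ND, the genes called ranged from 32 to 3842 over the fits that left out 1 library, the airway and epithelial genes from 1 to 7 and the cartilage genes from 0 to 9. Against 1484 with all libraries, dropping HFD replicate 1 left 127 calls and dropping HFD replicate 2 left 32. Dropping ND replicates 1, 2 and 3 in turn gave 3842, 624 and 39, and dropping sHFD replicate 3 gave 877. For sHFD vs ND the ranges were 0 to 360 (360 without ND replicate 2), 0 to 0 and 0 to 7, and for HFD vs sHFD 2696 to 5458, 5 to 7 and 2 to 4. Without both HFD replicate 3 and ND replicate 1, chosen after seeing the data, the counts were 3985, 6 and 11 in HFD vs ND, 0, 0 and 0 in sHFD vs ND, and 5305, 8 and 6 in HFD vs sHFD. With no filter, 763 genes and 2 cartilage genes were called in HFD vs ND, 0 genes in sHFD vs ND, and 12 airway and 4 cartilage genes in HFD vs sHFD. With a pseudocount of 0.1, 1 airway gene was called in HFD vs ND and 0 genes in sHFD vs ND. Median-ratio scaling gave 4 airway and 2 cartilage genes in HFD vs ND, and moved the median of all genes to 0.01, against -0.14. The causes were not tested. Replicate numbers were not used as pairs in the main fit, since the labels do not say what they mark. Between libraries of the same number, the correlation of deviations was above 0.1 in 4 of 9 pairs, from -0.29 to 0.41. HFD replicate 3 had 0.23 with ND replicate 1. With 3 libraries a diet and no reference value, these correlations cannot decide whether the numbers pair libraries. With the replicate block, 0 genes were called in sHFD vs ND, against 1, and Comp missed the threshold in HFD vs ND (limma adjusted p = 0.0579). Depth is unknown, so values near 0 have no stated precision.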

Other observations

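Other tissue markers had their own orders of libraries. Prph, an intermediate filament of peripheral neurons, rose in HFD relative to sHFD (2.05 ± 0.70 TPM in HFD, 0.41 ± 0.20 TPM in sHFD, SD, n = 3 each, log2 1.10, limma adjusted p = 0.00648). In HFD vs ND, 1 of 7 tested skeletal muscle genes and 1 of 3 tested brown fat genes passed, where 10.9% of all genes passed. Myh8, the perinatal myosin heavy chain, rose (11.2 ± 1.85 TPM in HFD, 4.21 ± 0.28 TPM in ND, log2 1.21, limma adjusted p = 0.0101). Gpd1, a glycerol phosphate dehydrogenase of the brown fat list, fell (3.90 ± 0.23 TPM in HFD, 7.31 ± 1.58 TPM in ND, log2 -0.74, limma adjusted p = 0.0385). In HFD vs sHFD, 2 of these 7 genes passed, both higher, and all 3 brown fat genes, 1 higher and 2 lower, where 34.2% of all genes passed. Ucp1, the thermogenic uncoupling protein, was at most 0.60 TPM.

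Tekt1 and Spdef were listed as ciliated and secretory airway genes. Tekt1 was 15.7, 3.88 and 2.74 TPM in ND, 2.58, 2.74 and 1.69 TPM in sHFD and 14.2, 13.1 and 13.9 TPM in HFD, and Spdef was 4.33, 1.46 and 0.87 TPM in ND, 0.70, 1.41 and 1.23 TPM in sHFD and 6.22, 5.38 and 3.73 TPM in HFD. Both were higher in all HFD libraries and in ND replicate 1, the libraries in which Scgb3a2 and Scgb1a1 were above 0, but HFD replicate 3 did not stand out among them. Among thymus markers, Ptcra, the pre-T-cell receptor chain, was 3.66 TPM in HFD replicate 3, 2.94 TPM in ND replicate 1 and 0.59 to 2.63 TPM elsewhere, while Cd3e was at most 0.22 TPM. Among liver genes, Ahsg, fetuin, was 75.7 ± 0.72 TPM in HFD, against 39.2 ± 14.6 TPM in sHFD (SD, n = 3 each), and rose (log2 0.99, limma adjusted p = 0.0138), while Afp was at most 0.22 TPM.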
